A study of Homo sapiens with 6 samples.

Results

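The genes described here are 8 binders of pyrimidine-rich or CA-rich RNA: PTBP1, PTBP2, PTBP3, HNRNPL, HNRNPLL, HNRNPK, PCBP1 and PCBP2. They were taken by gene symbol from a list, and are 8 of the 60607 genes and 116 of the 234326 transcripts in the tables. RNA came from PLC/PRF/5, an established human hepatocellular carcinoma line that carries integrated hepatitis B virus DNA, 48 h after transfection. The 3 knockdown libraries received siRNAs against SLU7, a factor of the second step of pre-mRNA splicing, and the 3 control libraries received siGL2, the control siRNA. All 6 libraries are of the same line and time, and no group of untransfected cells was analysed here. By its title, the series asks how lower SLU7 affects the mRNA transcripts that are expressed.

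The PTBP proteins and hnRNP L belong to a family with RNA recognition motifs, while hnRNP K and the poly(C)-binding proteins bind C-rich RNA through KH domains. PTBP1 represses many alternative exons by binding pyrimidine-rich stretches near their splice sites, and PTBP2 and PTBP3 are its paralogs, PTBP2 being best known from neurons. hnRNP L binds CA-rich RNA and regulates alternative exons, with HNRNPLL as its paralog, and hnRNP K, PCBP1 and PCBP2 act in splicing, mRNA stability and translation. Several of these genes control their own output through transcripts that carry a premature stop codon and are destroyed by nonsense-mediated decay. In PTBP1, skipping of a short internal exon shifts the reading frame and leads to such a transcript, and PTBP1 protein promotes that skipping.

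The sequences below are the short exons and introns that distinguish the transcripts described further on. They were read from GENCODE 29 transcripts (GRCh38), 5′ to 3′ on the strand of the gene. The first pair shows the 34-base exon of PTBP1 (chr19:807869-807902, plus strand, exon 10 of PTBP1-201) and that of PTBP2 (chr1:96806419-96806452, plus strand, exon 10 of PTBP2-203). Capitals mark the 25 of 34 bases that are the same in both, and several transcripts that skip the exon are annotated for nonsense-mediated decay (PTBP1-207, PTBP1-218 and PTBP2-207). PTBP1-208 also skips it and is annotated as coding.
PTBP1 34-base exon: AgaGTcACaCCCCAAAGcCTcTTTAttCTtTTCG
PTBP2 34-base exon: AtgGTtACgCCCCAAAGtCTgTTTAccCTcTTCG
The next is the 44-base exon 6 of HNRNPK-202 (chr9:83975462-83975505, minus strand), shown because the most abundant HNRNPK transcript skips it. It has no capitals.
HNRNPK 44-base exon: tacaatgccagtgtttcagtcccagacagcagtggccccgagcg
In the remaining 3, capitals mark the longest run of C and T within the last 50 bases of the intron. They are the last 120 bases of the intron before the PTBP1 exon (chr19:807749-807868, plus strand), and 2 short introns that are kept whole in retained-intron transcripts of PCBP2 (intron 3, chr12:53455371-53455460, plus strand) and HNRNPL (intron 7, chr19:38840377-38840487, minus strand).
PTBP1 intron before the 34-base exon: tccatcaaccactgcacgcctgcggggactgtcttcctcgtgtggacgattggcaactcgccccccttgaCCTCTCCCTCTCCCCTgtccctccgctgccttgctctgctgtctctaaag
PCBP2 intron 3: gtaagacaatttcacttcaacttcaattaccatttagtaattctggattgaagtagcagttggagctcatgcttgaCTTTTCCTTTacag
HNRNPL intron 7: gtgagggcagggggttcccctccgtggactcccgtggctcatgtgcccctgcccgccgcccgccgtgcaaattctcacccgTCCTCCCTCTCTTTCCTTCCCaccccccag
The capital runs are 16 bases long before the PTBP1 exon, 10 in PCBP2 and 21 in HNRNPL. Among 14334 introns that a GENCODE 29 retained-intron transcript keeps whole, the median run in that window was 8 bases, and 4.89%, 31.5% and 1.04% of them had a run at least as long as the 3 shown. The PCBP2 intron is 90 bases long and 35.6% G or C, and the HNRNPL intron is 111 bases long and 69.4% G or C. Introns of those lengths or shorter made up 12.3% and 20.1% of the same introns, whose median length was 275 bases.

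SLU7, the targeted gene, had 166.1, 128.1 and 143.6 estimated counts in controls 1 to 3 and 60.69, 44.81 and 56.42 in knockdowns 1 to 3. Its level fell to 49.9% of control in CPM (counts scaled to library size, log2 fold change -1.0, edgeR adjusted p = 0.0139), and the groups did not overlap. In TPM, SLU7 was at 4.7 ± 1.25 and 4.38 ± 0.277 (SD, n = 3 each) and the groups overlapped. On log2(TPM + 1), where the median gene moved by 0.352, SLU7 was at -0.063 (limma adjusted p = 0.868). The controls held 7736584 to 8693977 estimated counts and the knockdowns 5191452 to 6315740, of which the 8 genes took 0.06% to 0.099%. Mitochondrial ribosomal RNA took 16.8% to 24.1% of the control counts and 29.9% to 35.3% of the knockdown counts. Without mitochondrial and structural RNA genes in the fit, the log2 fold change was 0.94 for PCBP2 and -0.89 for PTBP3. Control replicate 1 and knockdown replicate 3 differed most from the rest of their groups, and their deviations from the group means correlated across genes (r = 0.44), so results are given with and without them where the call differs. As they were picked for deviating, less spread within groups and more calls are expected without them. Without both, 29.8% of all genes tested passed edgeR's test, against 13.9% with all 6 libraries. All 7 hepatocyte markers passed the filter, with summed levels of 17900 to 28300 CPM in the controls and 16600 to 22800 in the knockdowns, mostly APOB and SERPINA1. ALB was at 21.4 CPM and TTR at 1.37 CPM in the controls. Summed levels in control and knockdown libraries were 48.7 to 66.5 and 48 to 53.8 CPM for 4 immune markers, 1.01 to 2.56 and 1.08 to 1.64 for 4 fibroblast markers, 3.51 to 3.82 and 3.39 to 4.9 for 4 endothelial markers, and 14.3 to 18.8 and 7.29 to 10.2 for 4 neuronal markers. COL3A1, KDR and ELAVL4 had 0 counts in all 6 libraries, and TTR and PTPRC passed the gene test upward and TUBB3 downward. The labels say only that the libraries are triplicates, so p-values measure the spread between these libraries, which may be technical.

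At the level of whole genes, 2 of the 8 passed the test: PCBP2 rose and PTBP3 fell. DESeq2 called 3 of them, with HNRNPL added, and 14.8% of all genes. Over all 17109 genes tested with edgeR's quasi-likelihood test, 13.9% passed at a Benjamini-Hochberg adjusted p below 0.05, 5.93% higher and 7.93% lower in the knockdown. The median log2 fold change was 0.4 over the 8 genes and -0.0068 over all genes tested. By CPM, the groups did not overlap for PCBP2, HNRNPL and PTBP3, where 36.6% of all tested genes had groups that did not overlap. The other 5 genes had overlapping groups, and in bulk RNA fewer cells that express a gene and less RNA per cell cannot be told apart.

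**Figure D1:**
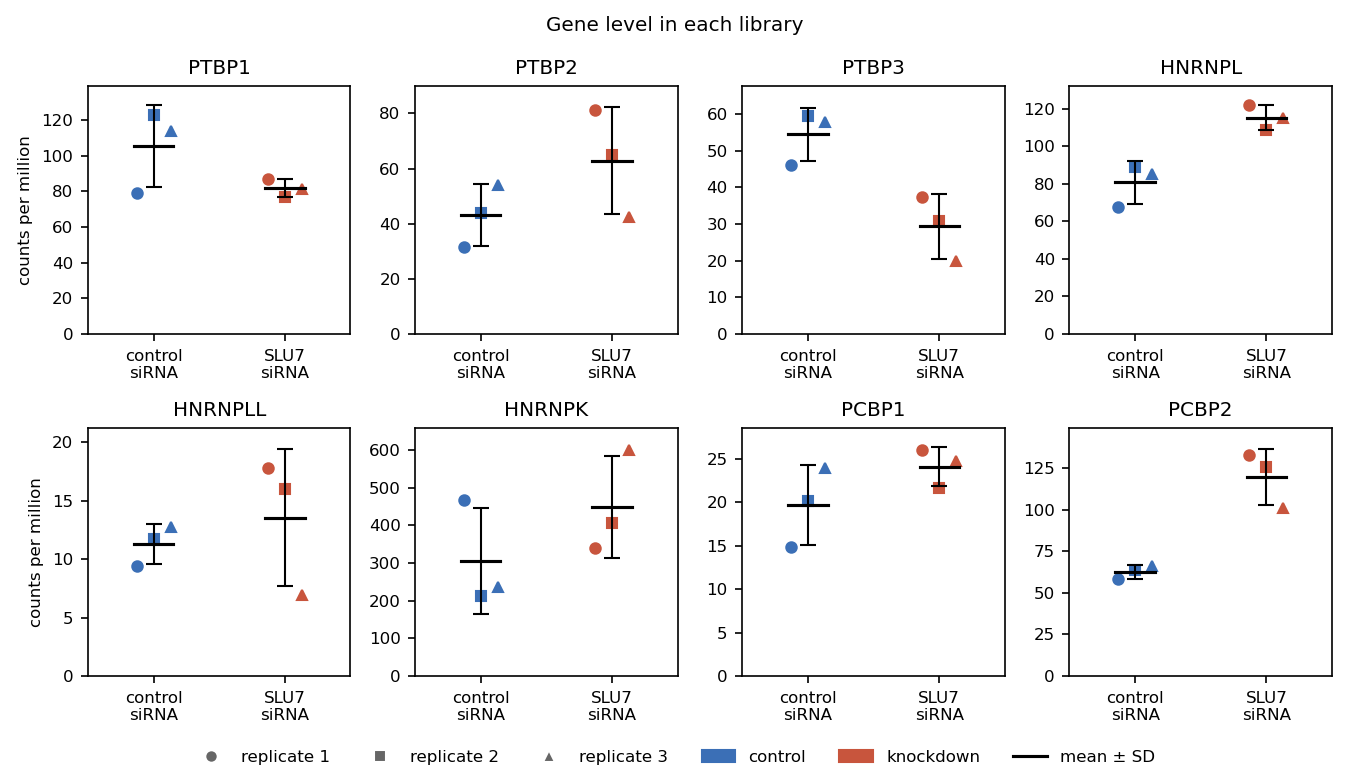
Level of each of the 8 genes in CPM (vertical axes, from 0) in the 3 control and 3 SLU7 siRNA libraries; each point is a library, and the bar gives the mean and SD. PCBP2 and HNRNPL sit higher and PTBP3 lower in every knockdown library than in any control, while the groups of the other 5 genes overlap.

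PCBP2, a KH-domain protein that binds poly(C) and acts in mRNA stability and translation, lies on chromosome 12 (53452102 to 53481162, plus strand). It was measured at 58.2, 63.5 and 66.1 CPM in controls 1 to 3 and at 133, 126 and 101 CPM in knockdowns 1 to 3. Every knockdown library was thus above every control, and knockdown replicate 3 was the lowest of its group. The gene rose 1.92-fold (log2 fold change 0.94, SE 0.16, edgeR adjusted p = 0.0109), from 62.6 ± 4.03 to 120 ± 16.8 CPM (SD, n = 3 each). The adjusted p was 0.05, 0.0525 and 0.074 when control replicate 2, knockdown replicate 1 or knockdown replicate 2 was left out, at changes of 0.94, 0.86 and 0.91.

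The added PCBP2 counts lay in transcripts that are not annotated as coding. Counts were summed within each gene into the annotated classes: protein-coding, retained-intron (transcripts that keep part or all of an intron) and nonsense-mediated decay. Retained-intron transcripts of PCBP2 had 15.9, 11.1 and 14.2 CPM in the controls against 51.5, 61.5 and 41 in the knockdowns. Decay transcripts had 5.62, 7.58 and 5.55 CPM in the controls against 33.4, 28.7 and 25.8 in the knockdowns. In neither class did the groups come near each other. The coding class had 36.7, 44.7 and 46.3 CPM in the controls against 48.4, 36 and 34.6 in the knockdowns, with groups that overlapped. When each class was tested as a feature of its own in edgeR, the decay class rose by 2.16 on the log2 scale (SE 0.23, adjusted p = 0.0238) and the retained-intron class by 1.84 (SE 0.23, adjusted p = 0.0265). The coding class changed by -0.16 (SE 0.2, adjusted p = 0.651). Over all 26783 gene and class pairs 5.26% passed this test. In the knockdown, 5.29% of all retained-intron classes and 2.30% of all decay classes passed upward. The median retained-intron class of all genes was at 0.29 and the median decay class at 0.09, both below the PCBP2 classes. This class test was chosen after the data were seen. With 1 library left out it called 0 classes of any gene in 5 of the 6 fits, and with control replicate 1 left out it called 3233, these PCBP2 classes among them, while the fold changes stayed between 2.06 and 2.32 (decay) and between 1.69 and 1.97 (retained-intron).

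As a share of PCBP2 counts, coding transcripts went from 63, 70.5 and 70.1% in controls 1 to 3 to 36.3, 28.5 and 34.1% in knockdowns 1 to 3. The mean share of retained-intron transcripts was 22.2 ± 4.94% in the controls and 42.6 ± 5.39% in the knockdowns, and that of decay transcripts 10 ± 1.8% and 24.4 ± 1.47% (SD, n = 3 each). As shares of TPM, the retained-intron means were 31% and 62.8% and the decay means 3.88% and 7.3%, so the difference in the decay share was 3.42 points in TPM against 14.4 in counts. For all 3 shares of counts the groups did not overlap and the exact two-sided permutation test gave p = 0.1, the smallest p that 3 against 3 allows. Over all genes with at least 2 tested classes, 26.4% of class shares had groups that did not overlap, with 23.1% of coding shares lower, 29.6% of retained-intron shares higher and 12.2% of decay shares higher. A counting interval (95% Wilson) on a share of PTBP1, PTBP2, HNRNPL, HNRNPK or PCBP2 counts spanned at most 6.3 points to each side, and covers counting error only.

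The PCBP2 transcripts behind these classes keep different introns. PCBP2-218, a decay transcript of 2543 bases, holds 1215 of the 1611 bases of intron 6 of the coding transcript PCBP2-202 within a long internal exon. It had 44.7, 56.6 and 43.4 estimated counts in the controls against 217.3, 155.7 and 138.2 in the knockdowns. PCBP2-220, a retained-intron transcript of 449 bases, keeps the 90-base intron 3 printed above. It had 45.7, 21.7 and 27.8 counts in the controls against 173.3, 168.1 and 111.5 in the knockdowns. PCBP2-209, of 1696 bases, keeps the 933 bases of intron 12, and had 68.2, 45.7 and 65.2 counts in the controls against 131.7, 153 and 101.5 in the knockdowns. All 3 transcripts were higher in every knockdown library than in any control. Their log2 fold changes were 2.11 (SE 0.27), 2.55 (SE 0.36) and 1.44 (SE 0.28). The coding transcript PCBP2-213 went the other way, with 42.4, 93.2 and 99.7 counts in the controls against 39.3, 12.5 and 0 in the knockdowns (log2 fold change -1.96, SE 1.16, edgeR adjusted p = 0.466), and control replicate 1 was close to knockdown replicate 1. The gene AC023509.1 overlaps PCBP2 on the same strand and had 58.2, 92.6 and 95 estimated counts in the controls against 57.2, 23.5 and 19.9 in the knockdowns. Other genes, mainly AC023509.1, hold 59.9% of the 31-base stretches of PCBP2-220, 27.3% of those of PCBP2-218 and 66.2% of those of PCBP2-213, so the split of reads between them is uncertain. PCBP2-209 shares 8.88% with other genes. PCBP2-221, the coding transcript with the highest mean count, had 135.5, 30.1 and 72 counts in the controls against 113.9, 65.8 and 89.4 in the knockdowns, with groups that overlapped.

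**Figure D2:**
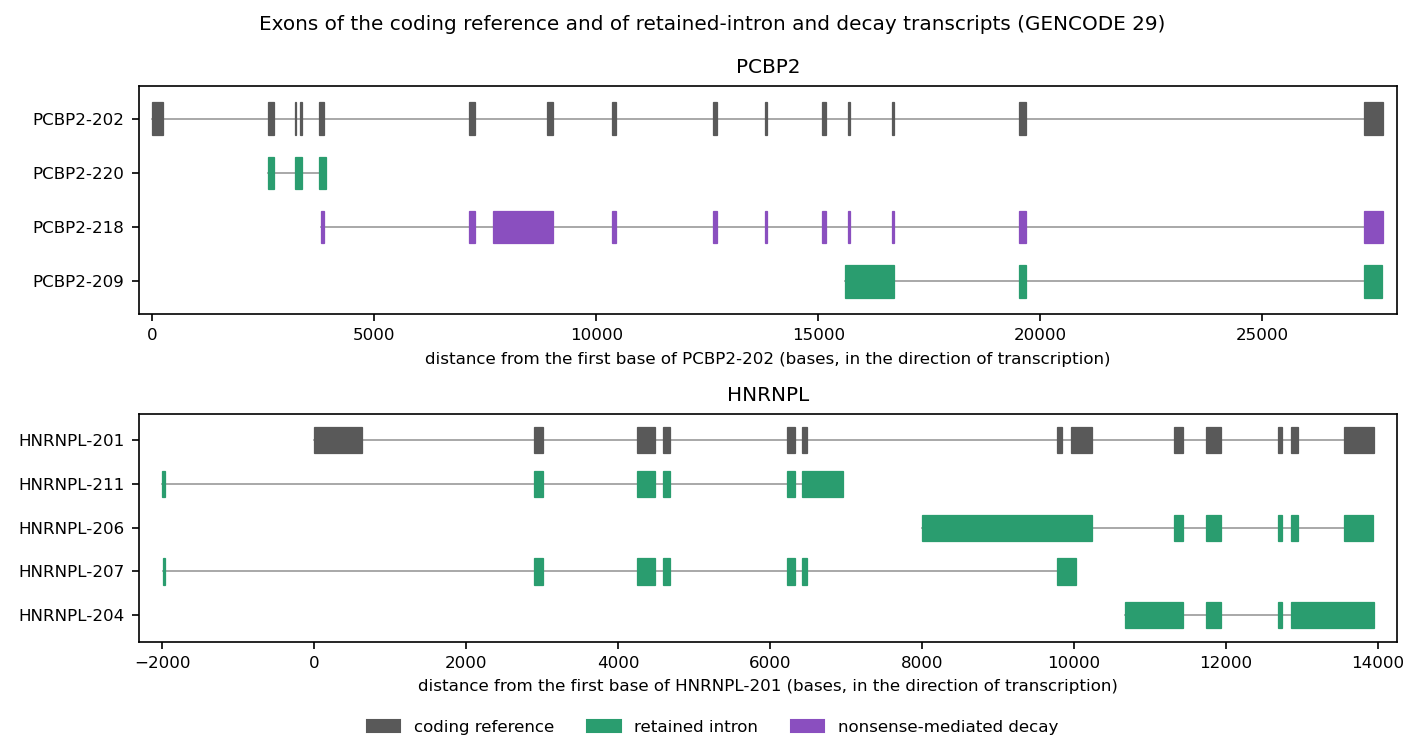
Exons (boxes) of PCBP2 and HNRNPL transcripts by distance in bases from the start of the coding reference transcript, in the direction of transcription; grey marks the coding reference, green retained-intron and purple decay transcripts. The wide boxes are introns kept in full or in part, such as the 1215 bases of intron 6 in PCBP2-218 and the 603 bases of intron 12 in HNRNPL-204.

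PCBP1, an intronless paralog of PCBP2 on chromosome 2 (70087454 to 70089203, plus strand), did not pass the test. It was at 14.8, 20.2 and 24 CPM in the controls against 26, 21.6 and 24.7 in the knockdowns (log2 fold change 0.29, SE 0.2, edgeR adjusted p = 0.362). The groups overlapped through control replicate 3, and control replicate 1 was the lowest library. The gene has a single transcript in the tables, so it has no retained-intron or decay class. The antisense gene PCBP1-AS1 overlaps it and had 190 to 260.8 estimated counts in the 6 libraries, and without a stated strand setting reads of the overlap cannot be told apart.

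HNRNPL, which binds CA-rich RNA and regulates alternative exons, lies on chromosome 19 (38836388 to 38852347, minus strand). It was at 67.8, 89.1 and 85.4 CPM in the controls and at 122, 109 and 115 CPM in the knockdowns. All knockdown libraries were above all controls, but the gene missed the threshold (1.43-fold, log2 fold change 0.51, SE 0.16, edgeR adjusted p = 0.0612). It passed with DESeq2 (adjusted p = 0.0457) and in edgeR without control replicate 1 and knockdown replicate 3 (0.41, adjusted p = 0.0395). That edgeR fit called 29.8% of all genes tested.

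The annotated classes of HNRNPL moved apart. Retained-intron transcripts had 42.5, 30.2 and 38.5 CPM in the controls against 95.8, 77 and 98.6 in the knockdowns, with every knockdown library above every control. The class rose by 1.23 on the log2 scale (SE 0.2, edgeR adjusted p = 0.0295), and by 1.09 to 1.34 with 1 library left out, where the call was kept without control replicate 1 only. Coding transcripts had 24.7, 58.3 and 44.2 CPM in the controls against 24.7, 29.7 and 16.3 in the knockdowns. Control replicate 1 was as low as knockdown replicate 1, and the change of -0.91 (SE 0.35, adjusted p = 0.158) did not pass. Without control replicate 1 and knockdown replicate 3 it was -0.98 (adjusted p = 0.0311), in a fit that called 13.3% of all classes. As a share of HNRNPL counts, retained-intron transcripts took 62.7, 33.9 and 45% in controls 1 to 3 and 78.7, 70.6 and 85.8% in knockdowns 1 to 3. Coding transcripts took 36.4, 65.5 and 51.8% in the controls against 20.2, 27.3 and 14.2% in the knockdowns. Both shares had groups that did not overlap (exact permutation p = 0.1).

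All 4 tested retained-intron transcripts of HNRNPL were higher in each knockdown library by CPM. HNRNPL-204, which keeps the 603 bases of intron 12 and 649 of the 1080 bases of intron 8, had 44.3, 33.3 and 39.6 estimated counts in the controls against 161.5, 104 and 125.7 in the knockdowns (log2 fold change 2.05, SE 0.25). HNRNPL-206, the HNRNPL transcript with the highest mean count, keeps the 111-base intron 7 printed above and 1769 of the 3282 bases of intron 6. It had 202.1, 125.9 and 183.4 counts in the controls against 282.1, 187.9 and 262.8 in the knockdowns (0.84, SE 0.25). HNRNPL-207, the highest in TPM, keeps the same 111-base intron and changed by 1.01 (SE 0.3). HNRNPL-211, with 471 bases of intron 6, changed by 1.69 (SE 0.33). The coding transcript HNRNPL-201 had 114.1, 172.1 and 130.3 counts in the controls against 56.8, 78 and 34.9 in the knockdowns (-0.98, SE 0.38, edgeR adjusted p = 0.289), while HNRNPL-210 varied within groups, from 17 to 218.4 in the controls and from 0 to 57.2 in the knockdowns. HNRNPL-202, a decay transcript with a 70-base exon inside intron 6, held 0 to 21.3 counts and was not tested. The processed copy HNRNPLP2 shares up to 59.8% of the 31-base stretches of a counted HNRNPL transcript and had 0 counts in all libraries. AC008982.2, a gene inside HNRNPL on the same strand, had 58.6, 22 and 27.3 counts in the controls against 49.3, 75.4 and 132.3 in the knockdowns.

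HNRNPLL, the paralog of hnRNP L that is best known from lymphocytes, lies on chromosome 2 (38561978 to 38603586, minus strand) and was the lowest of the 8 genes. It had 75, 87 and 100 estimated counts in the controls against 116, 87 and 37 in the knockdowns. Knockdown replicate 3 was the lowest and knockdown replicate 1 the highest of all 6 libraries, and the change was 0.28 (SE 0.32, edgeR adjusted p = 0.597). The decay transcript HNRNPLL-201 carries an 83-base exon inside intron 6 of HNRNPLL-209. It held 0, 8.4 and 11.2 counts in the controls against 26.3, 14.2 and 4.3 in the knockdowns, and did not pass the filter. Its share of HNRNPLL counts was 0, 9.7 and 11.2% in the controls against 22.7, 16.4 and 11.5% in the knockdowns, which did not overlap, by a margin smaller than the counting error (exact permutation p = 0.1).

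**Figure D3:**
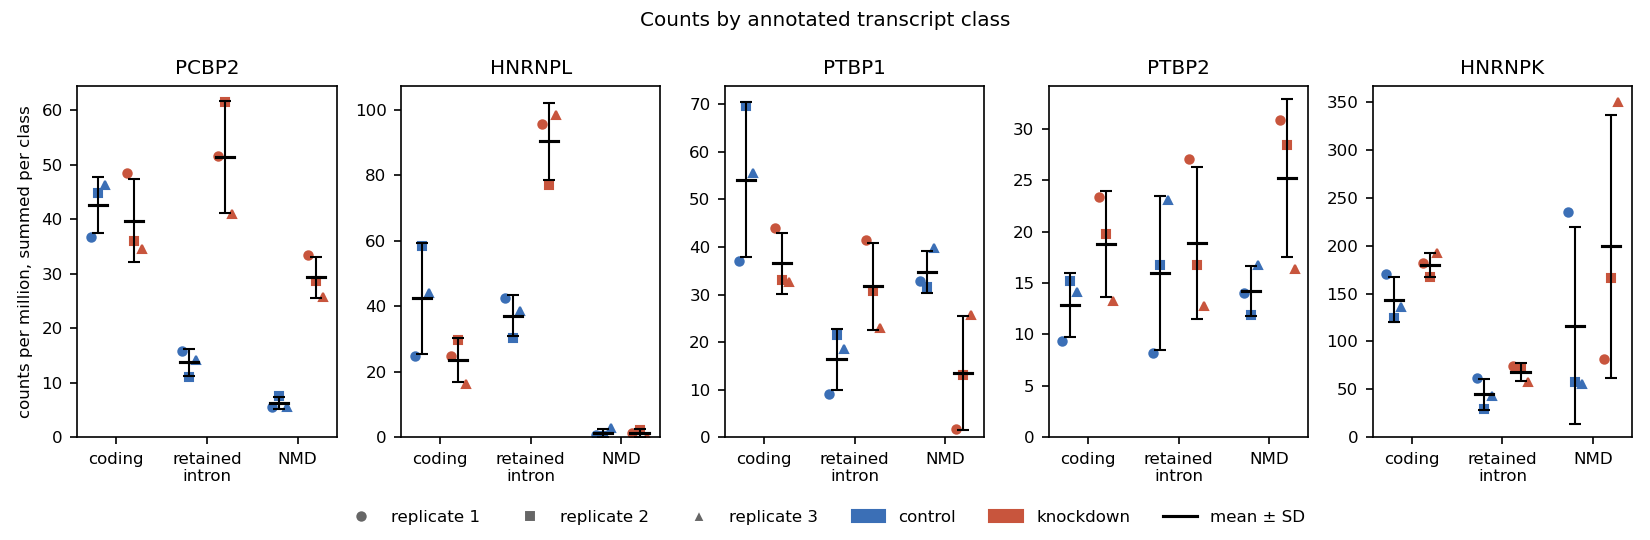
CPM summed over the protein-coding, retained-intron and nonsense-mediated decay (NMD) transcripts of 5 genes, in each library, with the mean and SD of each group; the vertical axes start at 0 and differ between genes. The retained-intron classes of PCBP2, HNRNPL and PTBP1 and the decay class of PCBP2 are higher in every knockdown library than in any control. The PTBP1 decay class is lower in every knockdown library.

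PTBP3 fell, the only one of the 8 called lower by edgeR on all 6 libraries. It lies on chromosome 9 (112217716 to 112333667, minus strand) and was at 46.1, 59.5 and 57.8 CPM in the controls against 37.5, 30.8 and 19.8 CPM in the knockdowns. All knockdown libraries were below all controls, with a fall of 1.85-fold (log2 fold change -0.89, SE 0.23, edgeR adjusted p = 0.0379). The long coding transcript PTBP3-205 (7192 bases) held most of these counts, 329.1, 364.7 and 327.2 in the controls against 180, 112.3 and 81.1 in the knockdowns (-1.17, SE 0.28). No knockdown library came near a control in this transcript. The coding class of PTBP3 was at -0.97 (edgeR adjusted p = 0.0597). It passed with control replicate 1 and knockdown replicate 3 left out (-0.88, adjusted p = 0.024), in a fit that called 13.3% of all classes. The PTBP3 call was the less stable of the pair. It was kept among the fits with 1 library left out only without control replicate 1 (adjusted p = 0.0131), and the others gave adjusted p from 0.0556 to 0.131 at changes from -1.11 to -0.67. The length-offset fit put PTBP3 at -0.12 (adjusted p = 0.861). On log2(TPM + 1), where the median gene moved by 0.352, it was 0.22, or below that median. The short transcript PTBP3-208 (389 bases) took about 2% of PTBP3 counts (2.01% in controls) but 29% of its TPM, and held 14.3, 5.5 and 0 counts in the knockdowns.

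PTBP1, the best studied repressor of the family, lies on chromosome 19 (797075 to 812327, plus strand). It was at 79.2, 123 and 114 CPM in the controls against 87.1, 76.7 and 81.5 in the knockdowns (log2 fold change -0.36, SE 0.19, edgeR adjusted p = 0.215). Control replicate 1 lay among the knockdown libraries and the other 2 controls above all of them. Without control replicate 1 the change was -0.53 (adjusted p = 0.0236), and with control replicate 1 and knockdown replicate 3 left out it was -0.53 (adjusted p = 0.0149). Those 2 fits called 4457 and 5248 of 17583 genes. With offsets for GC content and length the change was 0.055, where the median gene was at -0.003. On log2(TPM + 1) it was 0.17, below the median gene at 0.352.

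Within PTBP1 the classes went in different directions, and none passed. Retained-intron transcripts had 9.19, 21.4 and 18.6 CPM in the controls against 41.4, 30.7 and 23 in the knockdowns (0.89, SE 0.35, edgeR adjusted p = 0.166). Every knockdown library was above every control, with knockdown replicate 3 close to control replicate 2. Their share of PTBP1 counts was 11.6, 17.5 and 16.3% in the controls against 47.6, 40.1 and 28.3% in the knockdowns (exact permutation p = 0.1). Of all retained-intron shares, 29.6% were higher without overlap. Decay transcripts had 32.9, 31.6 and 39.7 CPM in the controls against 1.67, 13 and 25.7 in the knockdowns (-1.44, SE 0.7, adjusted p = 0.249), where every knockdown library was below every control but knockdown replicate 1 far below knockdown replicate 3. Coding transcripts had 37.1, 69.6 and 55.6 CPM in the controls against 43.9, 33 and 32.7 in the knockdowns (-0.63, SE 0.26, adjusted p = 0.184). PTBP1-206, which keeps the 457 bases of intron 10, had 3.3, 3.9 and 4.1 estimated counts in the controls against 44.7, 13.8 and 14.9 in the knockdowns (2.96, SE 0.6, adjusted p = 0.113, DESeq2 adjusted p = 0.01). PTBP1-210, which keeps introns 8 and 9, had 55.2, 97.8 and 81.5 counts in the controls against 130.3, 92.2 and 79.6 in the knockdowns (0.65, SE 0.32). PTBP1-207, the main decay transcript, had 136, 176.2 and 253.5 counts in the controls against 10.9, 42.1 and 74.6 in the knockdowns (-1.76, SE 0.71, edgeR adjusted p = 0.302), with every knockdown library below every control.

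PTBP2, the paralog known from neurons, lies on chromosome 1 (96721665 to 96823738, plus strand). It was at 31.5, 43.8 and 53.9 CPM in the controls against 81.2, 64.9 and 42.4 CPM in the knockdowns (log2 fold change 0.55, SE 0.27, edgeR adjusted p = 0.194). Knockdowns 1 and 2 were above all controls and knockdown replicate 3 lay among them. Without control replicate 1 and knockdown replicate 3 the change was 0.58 (adjusted p = 0.0176), in a fit that called 29.8% of all genes tested. The 3 classes of PTBP2 each overlapped between groups, with changes of 0.48 (coding), 0.18 (retained-intron) and 0.77 (decay, edgeR adjusted p = 0.137). With control replicate 1 and knockdown replicate 3 left out, the decay class passed (0.99, adjusted p = 0.0356), where 13.3% of all classes did. PTBP2-211, a coding transcript of 12014 bases, had the highest mean count, with 60.3, 91.6 and 89.3 counts in the controls against 106.4, 67 and 62.3 in the knockdowns. In TPM the retained-intron transcript PTBP2-205 was the highest.

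HNRNPK, a KH-domain protein of nucleus and cytoplasm, lies on chromosome 9 (83968083 to 83980616, minus strand) and was the most abundant of the 8. It had 3712, 1587 and 1846 estimated counts in the controls against 2204, 2196 and 3206 in the knockdowns, or 466, 213 and 236 against 339, 405 and 599 CPM. Control replicate 1 and knockdown replicate 3, the libraries that stood apart, were each the highest of their group, and the groups overlapped (log2 fold change 0.55, SE 0.33, edgeR adjusted p = 0.286). Without them the change was 0.73 (adjusted p = 0.00673), and without control replicate 1 alone it was 1 (adjusted p = 0.0179). The retained-intron class was at 0.54 (edgeR adjusted p = 0.27) and passed without both (0.95, adjusted p = 0.0353).

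That spread was widest in HNRNPK-207. This decay transcript of 822 bases, which skips the 44-base exon printed above, had 1867, 432.6 and 438.3 counts in the controls against 531.4, 900.8 and 1872 in the knockdowns. It made up 50.3% of HNRNPK counts in control replicate 1 and 58.4% in knockdown replicate 3, against 23.7% to 41% in the other 4 libraries. The coding transcript HNRNPK-202, which includes the exon, varied far less, with 867.2, 564.3 and 625.2 counts in the controls against 874.3, 726.1 and 884.2 in the knockdowns (0.6, SE 0.22, edgeR adjusted p = 0.26). HNRNPK-206, a coding transcript that lacks the 72-base exon 8, had 428.5, 313.3 and 339.9 counts in the controls against 205.1, 116.6 and 121.5 in the knockdowns (-0.99, SE 0.24, adjusted p = 0.15, DESeq2 adjusted p = 0.00737). HNRNPK-209, with 487 of the 1489 bases of intron 5, had 46.5, 24.5 and 18.2 counts in the controls against 121.5, 100.8 and 48.1 in the knockdowns (1.9, SE 0.48, adjusted p = 0.161, DESeq2 adjusted p = 0.0172). Between 12.9% and 54.7% of the 31-base stretches of the counted HNRNPK transcripts also occur in other genes, mainly its processed copies, of which HNRNPKP2, HNRNPKP3 and HNRNPKP5 had 0 counts and HNRNPKP1 and HNRNPKP4 at most 1. HNRNPK values therefore rest on reads that could have come from copies.

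Of the 116 transcripts of the 8 genes, 48 passed the filter on low counts and 18 had 0 counts in all libraries. In edgeR, 0 of the 48 passed at an adjusted p below 0.05, as did 0 of all 43128 transcripts tested (0.00%). The smallest adjusted p of any transcript was 0.0994, and HNRNPL-204, PCBP2-218 and PCBP2-220 were at that value. At an unadjusted p below 0.05, 11 of the 48 were higher and 5 lower, against 16.1% of all transcripts in either direction. By CPM, 16 were higher and 4 lower in every knockdown library, where 28.1% of all transcripts had groups that did not overlap. DESeq2 called 8 of them higher and 2 lower, where it called 6.52% of all transcripts. By type, 11 of the 17 tested retained-intron transcripts were higher in all knockdown libraries by CPM and 0 lower, against 25.2% and 7.64% of all tested retained-intron transcripts. The median log2 fold change was 1.44 over those 17 and 0.35 over all 7692. For the 24 tested coding transcripts it was -0.25, beside -0.20 over all 22777, and for the 7 decay transcripts 0.67, beside 0.10 over all 3628. Transcripts that passed the filter through the group where they are high enter these figures, which describe the 8 genes and do not test them.

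A second test asked whether a transcript or class moved relative to the rest of its gene (edgeR's diffSpliceDGE with the Simes method). For single transcripts 0 of 7 tested members passed, where 2.90% of 8869 genes did. PCBP2 was at an unadjusted p below 0.05, as were 8.79% of genes. It alone of the 7 passed the gene-level F test (adjusted p = 0.0296, a rule that 4.98% of genes met), while limma's diffSplice called 0 of the 7 and 2.35% of genes. For classes 0 of 5 tested members passed, where 2.41% of 6838 genes did, and HNRNPL (adjusted p = 0.0682) and PCBP2 (adjusted p = 0.0711) came closest, both at an unadjusted p below 0.05, as were 13.3% of genes. Both were past the threshold by the gene-level F test (adjusted p = 0.012 and 0.000969, met by 8.72% of genes) and by limma's diffSplice (adjusted p = 0.0159 and 0.000602, met by 5.88%). PTBP1, PTBP2 and HNRNPK did not pass in any of these 3. Without control replicate 1 and knockdown replicate 3, PCBP2 passed the transcript usage test (adjusted p = 6.78e-05, with 9.36% of genes called), and HNRNPL and PCBP2 passed the class test (adjusted p = 0.0303 and 0.0174, with 6.85% called). In that transcript test the coding PCBP2-202 had the smallest diffSpliceDGE adjusted p of the gene (2.19e-05). It had 4.7, 40.7 and 47.6 counts in the controls and 0 in every knockdown, and was not tested on all 6 libraries. PCBP2-220 was at 0.0282, while PCBP2-218 (0.375) and PCBP2-209 (0.921) did not pass. Without control replicate 1 alone, PTBP1 and PCBP2 passed the transcript usage test (adjusted p = 0.0467 and 0.00441, with 8.70% called), and HNRNPL and PCBP2 the class test (adjusted p = 0.0454 and 0.0193, with 6.26% called). In the class test PCBP2 retained-intron transcripts moved by 0.96 and decay transcripts by 1.28 relative to the gene, and coding transcripts by -1.05. In HNRNPL the retained-intron class moved by 0.77 and the coding class by -1.37.

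The short internal exons were then compared by the share of counts in transcripts that skip them, among GENCODE 29 transcripts that span the exon. A longer exon that covers the whole short exon, as in a retained-intron transcript, was counted as including it. For the 34-base exon of PTBP1, skipping transcripts took 85, 70.7 and 65.9% in controls 1 to 3 and 31.5, 46.5 and 70.8% in knockdowns 1 to 3. Knockdowns 1 and 2 were below every control and knockdown replicate 3 was among them, so that the means of 73.9 ± 9.93% and 49.6 ± 19.9% (SD, n = 3) did not differ beyond the spread (exact two-sided permutation p = 0.3). PTBP1-210 and PTBP1-206, which keep introns beside this exon, held 130.3 and 44.7 of 273.8 including counts in knockdown replicate 1. In control replicate 1 they held 55.2 and 3.3 of 73.5, so the share mixes intron retention with exon choice. Of the skipping counts, PTBP1-208, annotated as coding, held 191.8 of 416.7, 295.6 of 531.2 and 123.7 of 433.9 in the controls. In the knockdowns it held 114.8 of 125.7, 58.5 of 129 and 110.4 of 241.8. For the matching exon of PTBP2 the shares were 28.1, 36.9 and 35.3% in the controls against 40.5, 37.4 and 0% in the knockdowns (exact permutation p = 1), and the 0 rests on 0 of 65 counts, with an upper 95% Wilson limit of 5.58%. Transcripts not matched in GENCODE 29 are outside these shares and intervals, and whether they skip the exon was not read. They include PTBP2-212 and PTBP2-215, with 39.1 and 46.1 counts in knockdown replicate 3. For PTBP1 they include the coding transcript PTBP1-224, with 71, 92.9 and 141.4 counts in the controls against 49.9, 24.7 and 37.5 in the knockdowns. For the 44-base exon of HNRNPK they were 59, 31.5 and 29.2% in the controls against 31.1, 51.4 and 64.4% in the knockdowns, with overlap. The 72-base exon of HNRNPK was skipped in 13.5, 22.8 and 22.6% of control counts and in 12, 6.65 and 4.18% of knockdown counts, and a 93-base exon of PCBP2 (exon 9 of PCBP2-202) in 55.6, 39.2 and 42.1% and in 38.3, 37.7 and 30%. In these last 2 exons every knockdown library was below every control, with control replicate 1 and knockdown replicate 1 close in the HNRNPK exon and control replicate 2 and knockdown replicate 1 close in the PCBP2 exon, and the exact permutation p was 0.1, the smallest possible. Of counts that include the PCBP2 exon, PCBP2-218 held 217.3 of 252.8, 155.7 of 170.4 and 138.2 of 160.2 in knockdowns 1 to 3. In controls 1 to 3 this decay transcript held 44.7 of 95, 56.6 of 224.2 and 43.4 of 198.9. The lower share for the PCBP2 exon therefore rests on PCBP2-218. Skipping transcripts held 118.9, 144.4 and 144.4 counts in controls 1 to 3 and 157.1, 103.3 and 68.7 in knockdowns 1 to 3. With PCBP2-218 set aside, their share was the other way, higher in every knockdown library than in any control. That difference was not tested. The exons were chosen after the values were seen, and shares of estimated counts carry the uncertainty of splitting reads between transcripts that share most of their sequence.

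**Figure D4:**
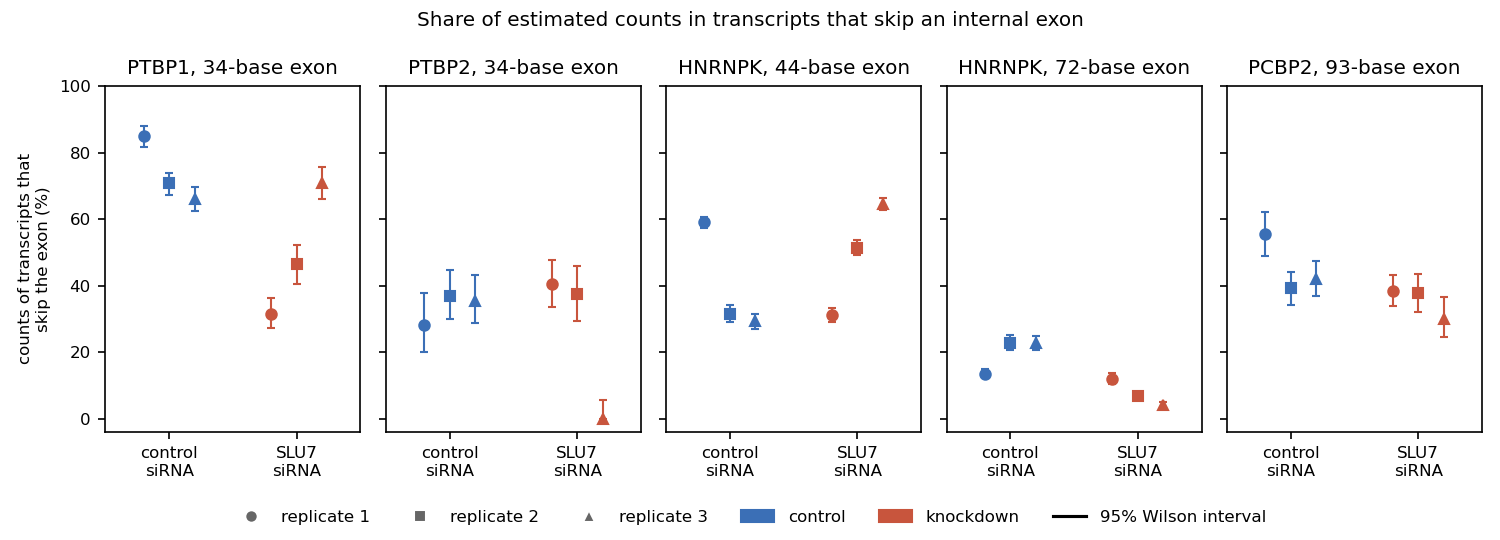
Share of estimated counts (percent, vertical axis) in transcripts that skip an internal exon, for 5 exons of PTBP1, PTBP2, HNRNPK and PCBP2; each point is a library with its 95% Wilson interval. The share is lower in every knockdown library than in any control for the 72-base exon of HNRNPK and the 93-base exon of PCBP2. The groups of the other 3 exons overlap. The lower share for the PCBP2 exon rests on the decay transcript PCBP2-218, which includes the exon. With PCBP2-218 set aside, the share of skipping transcripts was higher in every knockdown library than in any control. That difference was not tested.

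Levels of the 8 genes were compared with each other in TPM, which divides by transcript length, summed per gene. In the controls the order was HNRNPK (164 ± 98.9 TPM, SD, n = 3), PTBP1 (43.2 ± 5.61), PCBP2 (30.3 ± 7.12), HNRNPL (22.1 ± 3.78), PTBP2 (8.81 ± 4), PTBP3 (6.37 ± 1.13), PCBP1 (5.45 ± 1.73) and HNRNPLL (3.42 ± 0.941). HNRNPK and PTBP1, PTBP1 and PCBP2, and HNRNPL and PTBP2 did not overlap as neighbours, whereas PCBP2 and HNRNPL, PTBP2 and PTBP3, PTBP3 and PCBP1, and PCBP1 and HNRNPLL did. In the knockdowns PCBP2 took the second place (103 ± 15.5 TPM), above HNRNPL (48.8 ± 2.9) and PTBP1 (48.6 ± 4.25), and PCBP1 (9.37 ± 1.11) stood above PTBP3 (8.29 ± 4.98). Of the PCBP2 sum, the retained-intron transcript PCBP2-220 held 52.9 TPM in the knockdowns and 5.73 in the controls. It is 449 bases long, and 59.9% of its 31-base stretches also occur in other genes. By the most abundant transcript in place of the sum, 5 of the 8 kept their place in the control order.

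Other genes of the same biology were described from 4 lists. Among 18 binders of C-rich and U-rich RNA, all tested, 5 rose, 1 fell and 12 did not pass, where 5.93% of all genes tested rose and 7.93% fell. The median log2 fold change was 0.16. SF1, which recognises the branch point, rose from 52.5 ± 11.3 to 98.6 ± 6.47 CPM (log2 fold change 0.91, edgeR adjusted p = 0.0176), and U2AF1, the small subunit of the factor at the 3′ splice site, from 12.3 ± 6.02 to 33.3 ± 1.99 CPM (1.43, adjusted p = 0.0192). FUBP1 (0.74) and RAVER1, a partner of PTBP1 (0.8), rose as well, as did FUBP3 (0.61). PCBP4, a further paralog of PCBP1, fell from 16.2 ± 4.74 to 8.51 ± 0.135 CPM (-0.93, adjusted p = 0.0362). U2AF2, the large subunit that binds the polypyrimidine tract, was at 55.3 ± 3.79 and 45 ± 1.22 CPM and did not pass (adjusted p = 0.163). Whether U2AF1 and U2AF2 changed by different amounts was not tested.

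Of 16 genes with exons known to be controlled by PTBP proteins, PTBP2 and PTBP3 among them, 15 were tested: 0 rose, 3 fell in edgeR's test (GANAB by 1.13, PTBP3 by 0.89 and ACTN1 by 0.8 on the log2 scale) and the median was -0.14, where 7.93% of all genes fell. In the usage test 1 of 13 passed, the translation factor EIF4G2 (adjusted p = 0.0467), where 2.90% of all genes did. In the class usage test 2 of 12 passed, EIF4G2 (adjusted p = 0.0465) and ACTN1, an actin crosslinker (adjusted p = 0.0477), where 2.41% of all genes did. PKM, the pyruvate kinase gene whose exclusive exon pair is a known PTBP1 target, was at 713 ± 101 and 455 ± 53 CPM (-0.65, adjusted p = 0.0526), and its transcripts did not pass the usage test. Of 7 genes tied to hnRNP L, which include HNRNPL and HNRNPLL, PTPRC alone passed (2.01, adjusted p = 0.0223), at 0.43 ± 0.0714 and 1.79 ± 0.271 CPM. It is also on the list of immune markers. Of 11 targets of the PCBP proteins and hnRNP K, 6 were tested and 0 passed edgeR's test, while 1 was at an unadjusted p below 0.05. The smallest edgeR adjusted p belonged to MDM2 (0.61, adjusted p = 0.123) and RUNX1 (0.62, adjusted p = 0.295).

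The protein-coding genes whose log2 CPM followed each member most closely over the 6 libraries were named as a description, out of 9927 with a mean of at least 5 CPM. For PCBP2 they were TSN (r = 0.999), ZNF800 and CDYL2, for HNRNPL MUL1 (r = 0.994), NFKB1 and TNPO2, and for PTBP3 ITGA7 (r = 0.995), IRF2BPL and STAU1. For PTBP1 they were NAGLU, SCAMP5 and SLC35A4, for PTBP2 CKS1B, TFAM and TDG, for HNRNPLL TAPT1 and USP3, for HNRNPK PPFIA1, MTCL1 and CLSPN, and for PCBP1 ATP6V1B2, PML and SLC35D1. All those named here had r of at least 0.987. The 6 libraries share their 2 groups and their depth, so any pair of genes that differs between the groups correlates.

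Across processing settings, PCBP2 was higher in the knockdown under each of the 19 fits, from 0.8 to 1.79 on the log2 scale. PTBP3 lay below the median gene of the same fit in each of the 19, also on log2(TPM + 0.1), with 0.23 against a median of 0.521, and PTBP1 and PTBP3 were the members whose fold change took both signs. With control replicate 1 and knockdown replicate 3 left out, 6 of the 8 passed, all but HNRNPLL and PCBP1, where 29.8% of all 17583 genes tested passed. The replicate number as a block left 0 of 17109 genes past the threshold, among them PCBP2 (0.94, adjusted p = 0.0667) and PTBP3 (-0.92, adjusted p = 0.1).

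**Figure D5:**
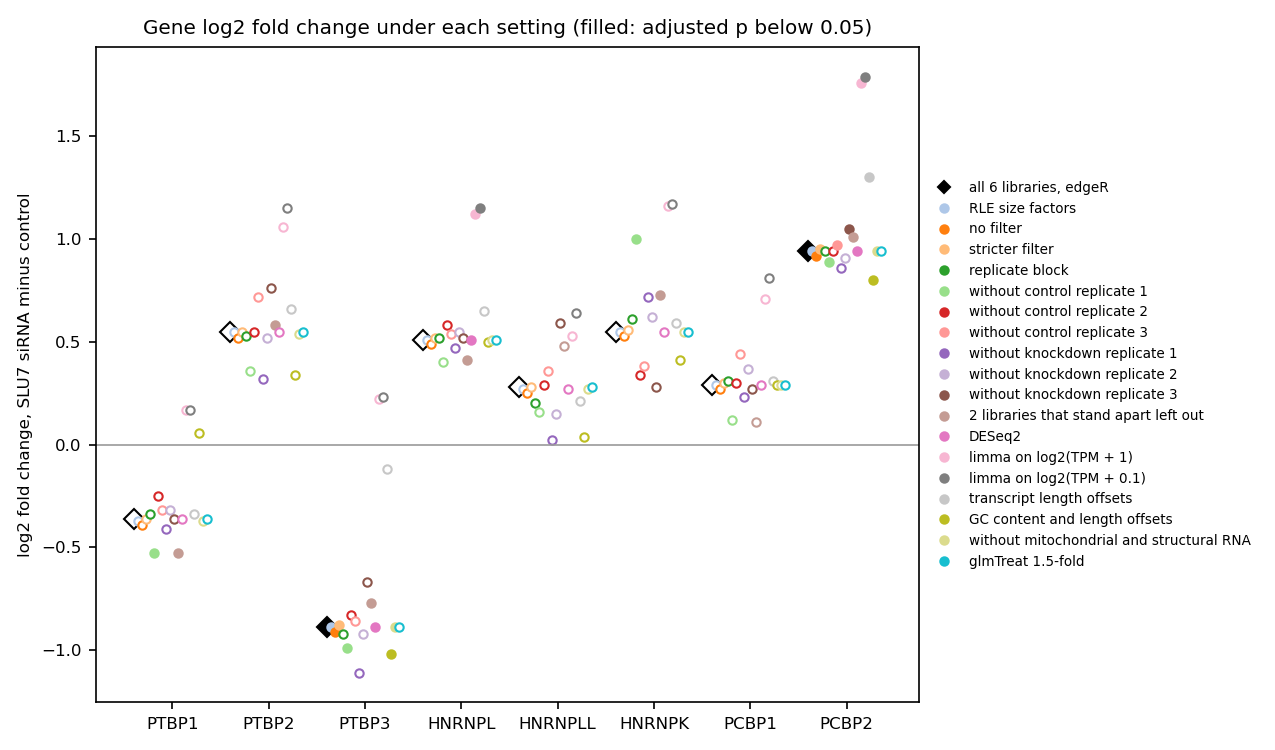
Log2 fold change (SLU7 siRNA minus control) of the 8 genes under each of the 19 fits; the diamond is the fit on all 6 libraries with edgeR, and filled symbols passed at an adjusted p below 0.05. PCBP2 lies between 0.8 and 1.79 in every fit, PTBP3 between -1.11 and 0.23, and PTBP1 between -0.53 and 0.17.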

How the data were processed

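Polyadenylated RNA of 6 libraries was prepared with a ScriptSeq mRNA kit, per the labels' protocols. The authors' deposited tables give, per transcript, estimated counts and TPM, which scales by transcript length and library size. The submitters' processing notes name FastQC 0.11.8, Trimmomatic 0.38, kallisto 0.46.1, sleuth 0.30.0 and GRCh38, and the strand setting is not given in the sources used here. The estimated counts were summed per gene (159 records of the pseudoautosomal regions merged), or per gene and annotated class, and rounded. They were filtered with filterByExpr (minimum count 10, total 15) and tested with edgeR 4.0.16 (R 4.3.3, TMM, quasi-likelihood) at a Benjamini-Hochberg adjusted p below 0.05, comparing 3 control and 3 knockdown libraries without a block. Usage within genes was tested with diffSpliceDGE. Alternatives used DESeq2 1.42.0, limma 3.58.1 on log2(TPM + 1) and log2(TPM + 0.1), offsets for length or for GC content and length (mgcv 1.9.3), other filters and scaling, a fold threshold of 1.5, the replicate block and libraries left out. Exon structures and sequences came from GENCODE 29, which matched 182749 of 234326 transcripts (78.0%) and 95 of the 116 of the 8 genes. The scripts were tested on simulated data. Totals were 5191452 to 8693977 estimated counts per library, and intervals cover counting error only.

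The members and lists were chosen with earlier results of these data known. Named by rule were SLU7, the 8 genes, their copies and antisense genes, the 4 transcripts per gene with the highest mean count, its highest retained-intron and decay transcripts and any past a test, up to 4 genes per list past the gene test by smallest p (otherwise 2), and the 3 genes most alike each member. For HNRNPLL, 1 of these 3 is not reported here. Other transcripts, FUBP3, PCBP4, U2AF2 and PKM, the marker genes and the overlapping genes were named after their values were seen, and the class expression test and the skipped exons were also chosen then. Same-numbered libraries deviated with r of -0.413, 0.109 and -0.368, so the numbers were not taken to pair them.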

Additional observations from a re-analysis of the deposited data

How the results depend on the processing

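Of 144 alternative gene fold changes of the 8 members, 117 kept direction and side of the threshold, 13 lost a call, 9 gained one and 5 changed sign. The sign changes were PTBP1 on log2(TPM + 1) (0.17), on log2(TPM + 0.1) (0.17) and with GC content and length offsets (0.055), and PTBP3 on both TPM scales (0.22 and 0.23). On log2(TPM + 1) 2985 genes passed higher and 150 lower, against 1015 and 1356 in edgeR.

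Against 2371 genes past the edgeR test, the replicate block left 0, length offsets 840, the fold threshold 36, and the fit without control replicate 1 and knockdown replicate 3 gave 5248. Of the 8 members these settings called 0, 1, 0 and 6, against 2. With 1 library left out the counts ran from 0 to 4457 genes and from 0 to 4 members. DESeq2 called 2812 transcripts, against 0 in edgeR. For transcript usage (257 genes) the block gave 87, the F test 442, the fit without the 2 libraries 865 and leaving out 1 library 156 to 808. For class usage (165) the same settings gave 12, 596, 483 and 31 to 446, and limma 402. For class expression (1408) the block gave 0, the fit without the 2 libraries 3681, DESeq2 2798 and leaving out 1 library 0 to 3233. The level order kept 5 of 8 places by the most abundant transcript. The labels do not say whether the replicate numbers pair the libraries, and they were not taken to. Calls lost under the block do not by themselves measure effect size.

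Weak transcript and class values changed sign. PTBP3-203 was 0.11 with the block and -0.54 to 0.25 with 1 library left out, and PCBP1-201 was -0.011 without the 2 libraries and -0.02 to 0.32 with 1 left out. The other ranges with 1 left out were -0.14 to 0.41 for HNRNPLL-206, -0.027 to 1.66 for HNRNPK-207, -0.069 to 0.49 for HNRNPK-210 and -0.17 to 0.52 for PTBP2 retained-intron transcripts. HNRNPLL coding transcripts were at -0.076 with the block and -0.21 to 0.29 with 1 left out. Where no value above shows it, the cause was not tested.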
